A study of Homo sapiens with 18 samples.

Results

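Ribosome biogenesis and RNA polymerase I were followed through 42 genes in Caco-2, an established line from a human colon carcinoma that serves as a model epithelium of the gut. The 42 genes were listed by name, by a rule that uses no measured value, though the list was drawn up with earlier results of these data known. Of these, 35 had a probe set that the array platform assigns to that gene alone, and all 35 passed the filter on low values. In all, 27303 probe sets passed it, and 12317 genes were read from 1 of them each. A gene with several such probe sets was read from its brightest on average. NOP56, DKC1, BOP1 and PPAN were covered only by probe sets that list several gene symbols, no probe set was listed for DDX18, GNL3 and EBNA1BP2, and none of these 7 is described further.

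Cells were grown in DMEM without riboflavin (vitamin B2, from which cells make the cofactors FMN and FAD), called depleted, or in DMEM with riboflavin, called control, and RNA was taken at 24, 48 and 72 h. Both media contained foetal calf serum. Dialysed serum was used in places, and the labels do not say for which arrays, so the riboflavin that remained in either medium is unknown here. Each of the 6 groups had 3 Affymetrix arrays. The sample numbers ran through all 6 groups 3 times and gave 3 sets of 6 arrays, with 1 array of every group in each set. The labels do not tell whether each array had its own culture, and the p-values reflect no more than the spread between arrays. By its title, the study asks how lack of riboflavin impairs the proliferation of gut cells.

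Arrays of the same set deviated from their group means together, at correlations of 0.302 to 0.602 within a set and of -0.754 to 0.163 between sets, so each comparison was fitted without and with the set as a block. Set 2 stood apart: its arrays reached a highest signal of 27380 to 31410 and those of sets 1 and 3 a highest signal of 6904.8 to 8574.5, and results without it are given where they differ. Of 10 colon epithelial markers 9 passed the filter, as did 4 of 6 fibroblast markers and 3 of the 4 leukocyte markers found. EPCAM, the epithelial adhesion molecule, averaged a signal of 7116, while KRT20, CDX1 and GPA33 passed at only 23.1, 25.9 and 27.9. LGALS4 did not pass, at 13.6. Summed over each list, epithelial markers lay between 17849 and 31116 on all arrays, fibroblast markers between 352 and 738, and leukocyte markers between 122 and 342, with PTPRC, the pan-leukocyte antigen, averaging 6.6. At 72 h the leukocyte sum, most of it LYZ (lysozyme), was 254.2 to 311.5 in depleted cells and 121.6 to 210.5 in control cells, and its part in the results at that time was not tested. In bulk RNA, fewer cells of a kind and less RNA per cell cannot be told apart.

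Ribosomes are built in the nucleolus. RNA polymerase I transcribes the long precursor of the large ribosomal RNAs, box C/D and box H/ACA small nucleolar ribonucleoproteins (snoRNPs) methylate and pseudouridylate it, and the small subunit processome and a chain of assembly factors cut and fold it into the precursors of the 40S and 60S subunits. Cells make most ribosomes while they grow and divide, and many genes of this pathway are known targets of the transcription factor MYC, which binds the E-box CACGTG.

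Start regions are shown for 7 members, because the E-box was found there in a larger share of members than of all genes. Of 36 members with a RefSeq start window (GRCh38.p14, from 250 bases before an annotated start to 50 after it), 17 held CACGTG, or 47.2%, against 1727 of 15843 genes, or 10.9%. A gene was counted when any of its windows held the motif, and CACGTG reads the same on both strands. The matches of the members lay close to the start: 17 of 18, or 94.4%, began between positions -50 and 44, against 36.8% of the 2077 matches over all genes. Each sequence runs from 70 bases before an annotated start to the first 30 transcribed bases, and capitals mark CACGTG. It begins 9, 14, 3, 15 and 6 bases after the start in PNO1, MRTO4, WDR43, NOP14 and FBL and at position -31 in DDX21, while the NHP2 window, shown for comparison, has none. The regions are PNO1 at chr2:68157818-68157917 (plus strand), MRTO4 at chr1:19251735-19251834 (plus), WDR43 at chr2:28894597-28894696 (plus), NOP14 at chr4:2963377-2963476 (minus), DDX21 at chr10:68956577-68956676 (plus), FBL at chr19:39846350-39846449 (minus) and NHP2 at chr5:178153856-178153955 (minus).
PNO1: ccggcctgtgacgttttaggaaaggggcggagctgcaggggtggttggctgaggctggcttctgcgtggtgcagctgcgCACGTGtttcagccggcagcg
MRTO4: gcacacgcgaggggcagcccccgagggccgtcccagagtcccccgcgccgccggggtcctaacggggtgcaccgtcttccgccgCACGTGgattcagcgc
WDR43: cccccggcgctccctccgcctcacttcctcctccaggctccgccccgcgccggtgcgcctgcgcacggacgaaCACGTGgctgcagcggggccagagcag
NOP14: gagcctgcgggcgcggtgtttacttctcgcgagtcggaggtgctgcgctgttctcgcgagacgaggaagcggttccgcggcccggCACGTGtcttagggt
DDX21: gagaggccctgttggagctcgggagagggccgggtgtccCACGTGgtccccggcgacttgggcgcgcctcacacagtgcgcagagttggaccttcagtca
FBL: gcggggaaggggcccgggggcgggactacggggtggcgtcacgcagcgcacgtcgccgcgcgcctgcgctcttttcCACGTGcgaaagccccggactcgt
NHP2: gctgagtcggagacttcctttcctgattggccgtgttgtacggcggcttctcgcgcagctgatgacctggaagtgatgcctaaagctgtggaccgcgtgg
A match is a description of these letters and no evidence of binding. Other motifs searched on both strands were CCGGAAG, an ETS site, in 38.9% of members and 16.5% of all genes, GGGCGG, a GC box, in 80.6% and 64.3%, and CCAAT in 44.4% and 42.1%. AGATGGC, a YY1 core, was in 8.33% of members and 7.66% of all genes, and GCATGCG, an NRF1 core, in 11.1% and 6.07%. None of these motifs contains another. Small nucleolar RNA genes also lie inside members: 9 of 42 gene spans, or 21.4%, contained an annotated snoRNA gene on either strand, against 2.62% of 20056 protein-coding genes. Those measured are NOP58, NCL, UTP20, WDR43 and TSR1.

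The members lay lower in depleted cells at 24 and 48 h and higher at 72 h. Averaged over the 35 members, the log2 level (log2 of signal + 16) was 8.64 ± 0.116 in depleted cells and 8.97 ± 0.144 in control cells at 24 h (SD, n = 3 each). At 48 h it was 8.92 ± 0.114 in depleted cells and 9.10 ± 0.0953 in control cells. By 72 h it was 8.88 ± 0.113 in depleted cells and 8.67 ± 0.0827 in control cells. The sets kept their order in every group, and the depleted array lay on the same side of the control array of its set in all 3 sets at each time.

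**Figure D1:**
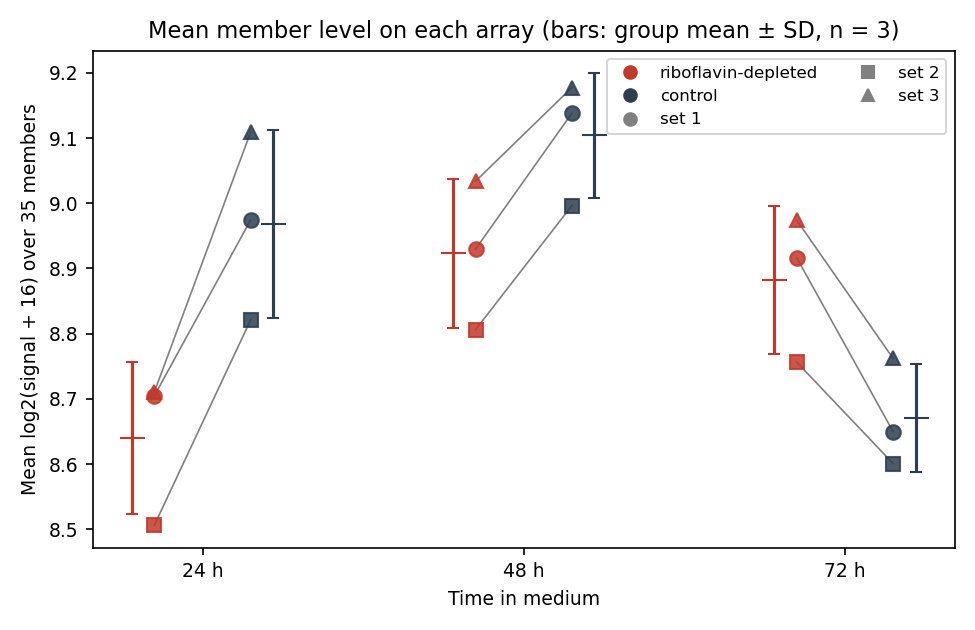
Mean log2(signal + 16) over the 35 members on each array, by time in medium, with depleted cells in red and control cells in dark blue, symbols for the sets, lines joining the arrays of a set and bars for the group mean ± SD (n = 3). Depleted arrays lie below the control array of their set at 24 and 48 h and above it at 72 h.

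Within sets, the median member differed between depleted and control cells by -0.25, -0.36 and -0.38 at 24 h on the log2 scale, with 27, 28 and 32 of 35 members lower in sets 1, 2 and 3. At 48 h the differences were -0.21, -0.19 and -0.13, with 28, 27 and 25 members lower. At 72 h they were 0.22, 0.17 and 0.24, with 7, 12 and 8 members lower. Over all probe sets tested, the median of the same differences stayed between -0.01 and 0.07.

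Few single members passed a test at 3 arrays a group. Without the block, limma with Benjamini-Hochberg adjustment over all probe sets called 0 of 35 members at 24 h, where it called 0.0403% of probe sets lower and 0.176% higher. It also called 0 at 48 h (0.011% lower, 0.0696% higher), 0 at 72 h (1.93% lower, 2.23% higher) and 0 in the average of the 3 times (1.53% lower, 2.73% higher). At an unadjusted p under 0.05 there were 6 members lower at 24 h (3.22% of probe sets), 2 lower at 48 h (1.85%), 1 lower (8.49%) and 4 higher (8.31%) at 72 h, and 4 lower in the average (6.89%). With the set as a block, 1 member was called lower (0.813%) and 0 higher (1.55%) at 24 h, 0 at 48 h (0.165% lower, 0.527% higher), 1 lower (6.9%) and 5 higher (6.4%) at 72 h, and 4 lower (6.46%) and 0 higher (8.55%) in the average. The fit with the block gave more members at an unadjusted p under 0.05. There were 18 lower (7.91%) and 1 higher (9.79%) at 24 h, and 6 lower (5.67%) and 0 higher (10.2%) at 48 h. At 72 h 1 was lower (14.3%) and 11 higher (13.2%), and in the average 9 lower (12.7%) and 1 higher (16.1%).

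Direction was more uniform than the calls. At 24 h, 31 of 35 members lay below 0 with a median of -0.35, against a median of 0.01 over all genes tested. At 48 h, 30 lay below 0 with a median of -0.14 (all genes 0.03), and at 72 h 5 lay below 0 with a median of 0.18 (all genes -0.04). Without set 2 the 72 h median was 0.26. Centring each array on its 75th percentile moved the median of all probe sets at 48 h to -0.06, against 0.07 as deposited, and that of the members to -0.27. Counted by set, 22 members were lower in depleted cells in all 3 sets at 24 h, where 21% of probe sets were, and 1 was higher (22.5%). At 48 h 13 were lower in all 3 sets (14.9%) and 0 higher (21.7%), and at 72 h 1 was lower (26.4%) and 17 higher (26%). Both lower in all 3 sets at 24 h and higher in all 3 at 72 h were 10 members (3.93% of probe sets), and 0 showed the opposite pattern (5.26%).

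**Figure D2:**
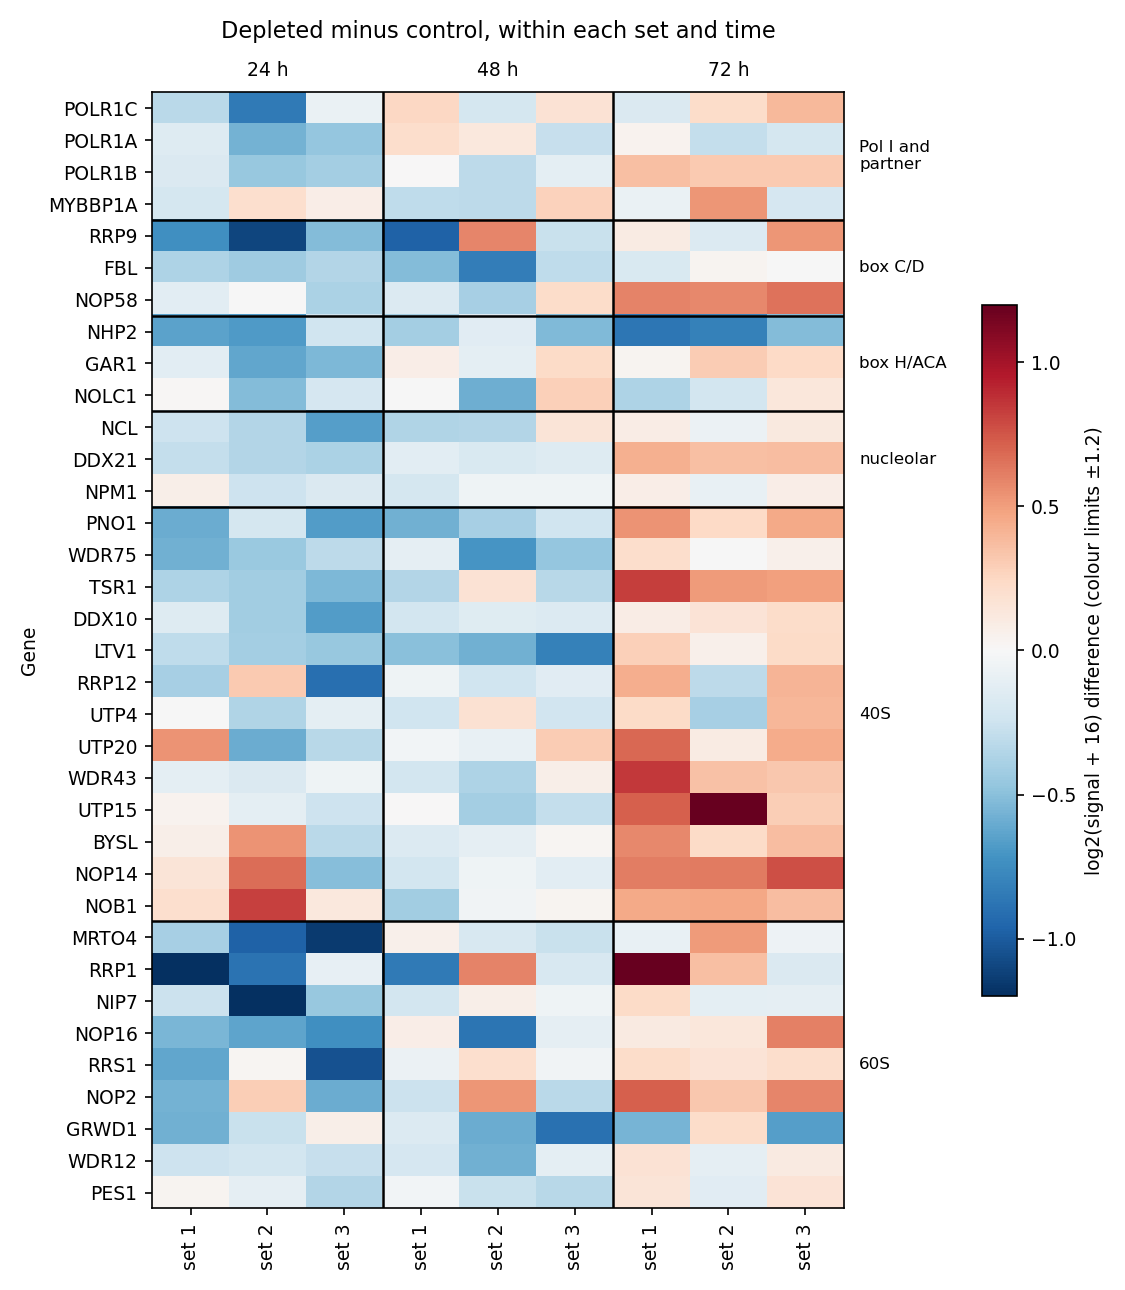
Depleted minus control log2(signal + 16) of each member within each set at 24, 48 and 72 h, grouped by role, with blue for lower and red for higher in depleted cells. Blue prevails at 24 and 48 h and red at 72 h, with 22 members blue in all 3 sets at 24 h and 17 red in all 3 sets at 72 h.

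RNA polymerase I itself was represented by its largest subunit POLR1A, its second largest POLR1B and POLR1C, a subunit shared with RNA polymerase III. At 24 h all of them were lower in every set, and none passed the test. POLR1C had signals of 254, 179.8 and 210.3 in depleted cells of sets 1, 2 and 3 against 322.4, 335.5 and 223.3 in control cells at 24 h. The groups overlapped, since the set 3 control array lay below the set 1 depleted array. Its difference was -0.42 (SE 0.24, limma adjusted p = 0.700), and the differences of POLR1A and POLR1B were -0.40 and -0.35. At 72 h POLR1B had 515.8, 334 and 443.4 in depleted cells against 397.1, 265.5 and 352.8 in control cells. Every depleted array was the higher of its set, by 0.33 in the mean (SE 0.22, adjusted p = 0.507), while the groups overlapped. POLR1A was at -0.15 and POLR1C at 0.15 at 72 h. A dimmer POLR1A probe set, with a mean signal of 53.1, lay at -0.98 at 72 h. That probe set was called lower with the block (limma adjusted p = 0.0373, and 0.0920 without it). MYBBP1A, a nucleolar protein that binds MYB and associates with pre-ribosomal complexes, lay at 0.02, -0.11 and 0.08 at the 3 times.

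The box C/D group held FBL (fibrillarin, the methyltransferase), NOP58, a core scaffold protein, and RRP9, a component of the U3 particle that takes part in the first cuts of the precursor. FBL had 1246.1, 905.8 and 1317.1 in depleted cells against 1790.8, 1617.7 and 1630.5 in control cells at 48 h. All depleted arrays lay below all control arrays, and the difference was -0.55 (SE 0.22, adjusted p = 0.592, and 0.0750 with the block). FBL was at -0.38 at 24 h and at -0.05 at 72 h. Its average over the 3 times, -0.33 (SE 0.13), had an adjusted p of 0.173 and was called lower with the block (adjusted p = 0.0111), with 8 of 9 set-and-time pairs lower.

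NOP58 had its difference at the late time. At 24 h it had 1887.9, 1525.3 and 1510.3 in depleted cells against 2061.8, 1528 and 1965.2 in control cells, with set 2 all but equal. At 72 h it had 2292.2, 1743.9 and 2310.3 in depleted cells against 1507.4, 1167.6 and 1466.1 in control cells. All depleted arrays lay above all control arrays at 72 h, 1.52-fold (log2 0.61, SE 0.21, adjusted p = 0.130), and the call was reached with the block (adjusted p = 0.0109). RRP9, the member of this group with the smallest p at 24 h, had 53.5, 36.4 and 99.9 in depleted cells against 99.7, 96.3 and 150.7 in control cells. Each depleted array was below the control array of its set, the groups overlapped by a small margin, and the difference of -0.79 (SE 0.41) had an adjusted p of 0.654.

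Among the box H/ACA proteins, NHP2 was lower in depleted cells throughout. NHP2 binds the H/ACA guide RNA and is also part of telomerase. In depleted cells it had 767.1, 504.8 and 726.6 at 24 h, 929.9, 603.2 and 880.1 at 48 h, and 512.4, 435 and 676.4 at 72 h. In control cells it had 1207.6, 816.8 and 858.4 at 24 h, 1237.5, 666.2 and 1278 at 48 h, and 950.9, 772.7 and 974 at 72 h. All 9 set-and-time pairs were lower in depleted cells, the only such member, where 3.48% of probe sets were lower and 3.61% higher in all 9, and the groups did not overlap at 24 and 72 h. At 72 h the difference was -0.73 (SE 0.28, adjusted p = 0.181, and 0.0117 with the block). Averaged over the times it was -0.54 (SE 0.16, adjusted p = 0.0753), and NHP2 was called lower with the block (adjusted p = 0.00284) or without the set 2 control array at 48 h (log2 -0.64, adjusted p = 0.0238).

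GAR1, another core protein of the H/ACA particle, followed the common pattern at 24 and 72 h but not at 48 h. Its signals at 24 h were 326.2, 269.1 and 309.9 in depleted cells against 356.5, 422.3 and 457.6 in control cells, with no overlap (log2 -0.43, SE 0.19, adjusted p = 0.558). It lay at 0.06 at 48 h and at 0.19 at 72 h, higher in all 3 sets. NOLC1, a chaperone that shuttles snoRNPs between nucleolus and Cajal bodies, lay at -0.23, -0.10 and -0.15 at the 3 times and was mixed between sets. A second NOLC1 probe set, with a mean signal of 193, was called lower at 24 h with the block (log2 -0.75, adjusted p = 0.0294, and 0.371 without it).

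The abundant multifunctional proteins of the nucleolus were nucleolin (NCL), nucleophosmin (NPM1) and the RNA helicase DDX21, which links polymerase I transcription to processing. NCL had 1561.7, 1473.4 and 1157.9 in depleted cells against 1864, 1884 and 1841.6 in control cells at 24 h. The groups did not overlap, and the difference was -0.42 (SE 0.19, adjusted p = 0.557). At 48 and 72 h NCL lay at -0.18 and 0.04. NPM1 varied far more between sets than between media, at 10952.8 to 13531.1 in set 2 and 4977 to 5966 in sets 1 and 3, and its differences lay at -0.12, -0.11 and 0.03. In sets 1 and 3 it lay near the upper end of the arrays, whose highest signals were 6904.8 to 8574.5. What this limit does to its differences was not tested.

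DDX21 shifted with time in every set. At 24 h it had 3066.2, 4788.5 and 2777.3 in depleted cells against 3742.9, 6116.8 and 3626.4 in control cells. At 72 h it had 4082.4, 5975.5 and 3522.9 in depleted cells against 3033.2, 4651 and 2717.8 in control cells. Set 2 was the highest in every group, so the groups overlapped, yet each depleted array was below its control at 24 h and above it at 72 h. The 72 h difference of 0.39 (SE 0.34) had an adjusted p of 0.666 and was called higher with the block (adjusted p = 0.0380).

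**Figure D3:**
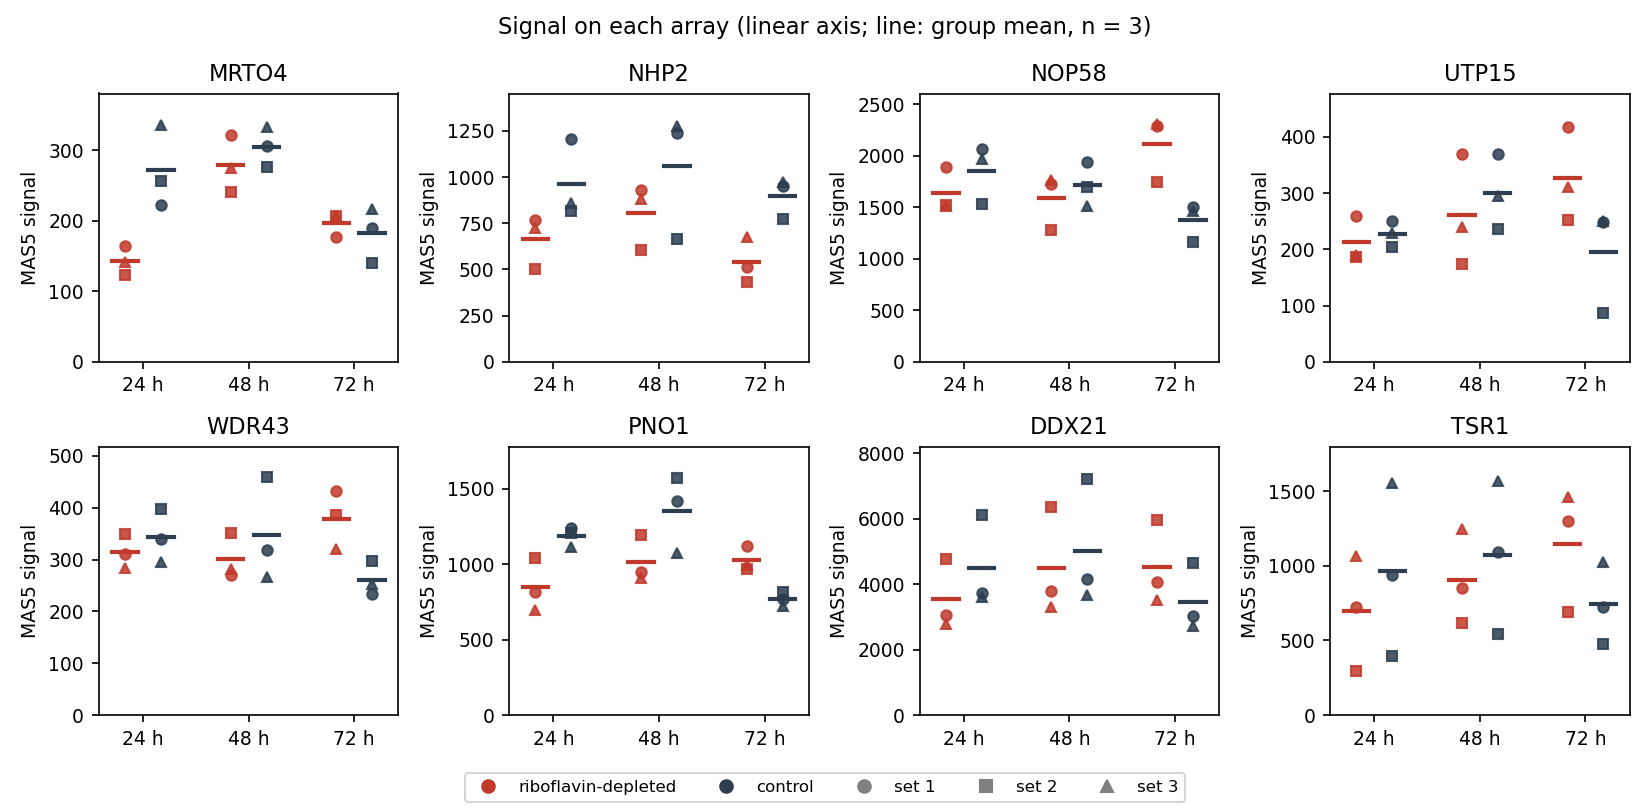
MAS5 signal of 8 members on each array, on linear axes that start at 0, by time, with depleted cells in red left of control cells in dark blue, symbols for the sets and a line for each group mean (n = 3). NHP2 lies lower in depleted cells at every time, while NOP58, UTP15, WDR43 and PNO1 have no overlap between the groups at 72 h, with depleted cells higher.

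The small subunit processome and 40S maturation factors, 13 members, had the highest median of the 6 role groups at 72 h. At 24 h 10 of 13 lay below 0 with a median of -0.16, at 48 h 12 of 13 with a median of -0.17, and at 72 h 0 of 13 with a median of 0.41. None passed without the block, and 3 were called higher with it at 72 h, where 6.4% of probe sets were. UTP15, a processome subunit needed for efficient polymerase I transcription, had 417.1, 251.7 and 310.4 in depleted cells against 248.3, 87.4 and 250.4 in control cells at 72 h. All depleted arrays lay above all control arrays, narrowly for set 2, 1.73-fold (log2 0.79, SE 0.34, adjusted p = 0.245, and 0.0264 with the block).

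WDR43, the human counterpart of yeast Utp5, had 431.5, 385.4 and 319.3 in depleted cells against 233.3, 298 and 252.2 in control cells at 72 h. The groups did not overlap, and the difference of 0.51 (SE 0.22) had an adjusted p of 0.247, and 0.0356 with the block. TSR1, a GTPase-like factor on the immature 40S particle, had 1298.7, 687.6 and 1456.8 in depleted cells against 723.4, 479.2 and 1027.9 in control cells at 72 h. Every set was higher in depleted cells while the groups overlapped, because set 2 was low throughout. Its difference of 0.61 (SE 0.53) had an adjusted p of 0.656, and 0.0484 with the block. NOP14, a processome scaffold, had 126.6, 142.2 and 183 in depleted cells against 77.1, 86.6 and 100.6 in control cells at 72 h. Its groups did not overlap, and it missed the threshold both ways (log2 0.67, SE 0.28, adjusted p = 0.235, and 0.0544 with the block).

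PNO1, the partner of the nuclease NOB1 on the immature 18S RNA, lay on opposite sides at the early and the late time. At 24 h it had 816.1, 1040.9 and 693.4 in depleted cells against 1241.6, 1207.1 and 1111.9 in control cells. At 72 h it had 1123.6, 968 and 997.3 in depleted cells against 770.8, 816.8 and 724.5 in control cells. Neither time had any overlap, with depleted cells below at 24 h and above at 72 h. The differences were -0.49 at 24 h (SE 0.20, adjusted p = 0.510) and 0.41 at 72 h (SE 0.20, adjusted p = 0.330). A dimmer PNO1 probe set, with a mean signal of 177, was called lower at 24 h with the block (log2 -0.70, adjusted p = 0.0335, and 0.323 without it).

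NOB1, the endonuclease that makes the mature end of 18S RNA, was the member with the most opposite value at 24 h. It had 819.7, 648.9 and 748.7 in depleted cells against 709.7, 359.8 and 682.9 in control cells, higher in all 3 sets with overlap (log2 0.39, SE 0.24, adjusted p = 0.740). At 72 h it had 1053.7, 991.3 and 1127 in depleted cells against 765.8, 712.9 and 866 in control cells. There the groups did not overlap, at a difference of 0.43 (SE 0.24, adjusted p = 0.410). NOP14 and BYSL, a factor for late 40S steps, also lay just above 0 at 24 h, at 0.11 and 0.09.

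Other 40S members were lowest early. DDX10, a helicase of the processome, had 543.5, 469.4 and 400.8 in depleted cells against 608.5, 632.3 and 649.3 in control cells at 24 h, without overlap (log2 -0.42, SE 0.17, adjusted p = 0.488). LTV1, an export and maturation factor of the 40S precursor, had 288.8, 193.3 and 247.2 in depleted cells against 414.4, 295.5 and 447.1 in control cells at 48 h. All depleted arrays were below all control arrays, narrowly for set 2 (log2 -0.63, SE 0.26, adjusted p = 0.609, and 0.0969 with the block). A second LTV1 probe set of low signal, 40.4 on average, was called higher in depleted cells at 72 h (log2 0.99, adjusted p = 0.0292), where the one used lay at 0.19, so these probe sets of LTV1 differ. WDR75, the counterpart of yeast Utp17, lay at -0.44, -0.43 and 0.09, and its average of -0.26 (adjusted p = 0.520) was called lower with the block (adjusted p = 0.0358). UTP4, UTP20 and RRP12 lay between -0.33 and 0.06 at 24 and 48 h and between 0.07 and 0.41 at 72 h.

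The 60S assembly factors, 9 members, had the lowest median of the 6 role groups at 24 h. All 9 lay below 0 at 24 h with a median of -0.55, 8 at 48 h with a median of -0.15, and 1 at 72 h with a median of 0.12. MRTO4, which occupies the place of the P-stalk protein on the immature subunit, had 164.7, 123 and 142.1 in depleted cells against 222.9, 257 and 335.6 in control cells at 24 h. The groups did not overlap, and the level in depleted cells was 0.557 times that in control cells (log2 -0.84, SE 0.21, adjusted p = 0.146). Among the probe sets that stand for the members it was the only one called at 24 h with the block (adjusted p = 0.0188). MRTO4 lay at -0.13 at 48 h and at 0.12 at 72 h.

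NIP7, needed for 60S assembly and cleavage of the precursor, had 627.1, 412.7 and 702.1 in depleted cells against 751, 1179.8 and 967 in control cells at 24 h. Its groups did not overlap, and set 2 showed the widest gap (log2 -0.73, SE 0.23, adjusted p = 0.316, and 0.0938 with the block). NOP16, a nucleolar 60S factor, had 519.9, 280.3 and 387 in depleted cells against 768.9, 444.9 and 653.6 in control cells at 24 h, lower in every set with overlap (log2 -0.64, SE 0.34, adjusted p = 0.663). RRP1, at low signal, had 23.9, 76.5 and 88.1 in depleted cells against 92.4, 155.3 and 95.6 in control cells at 24 h. Its groups barely separated, and 1 control array at 72 h had a signal of 7.3, so the RRP1 differences of -0.81 at 24 h and 0.67 at 72 h carry an SE of 0.52. Without that control array the 72 h difference was -0.06.

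GRWD1, a histone-binding protein linked to 60S assembly, lay lower at all times, at -0.26, -0.55 and -0.33. Its average of -0.38 (SE 0.16, adjusted p = 0.230) was called lower with the block (adjusted p = 0.0476), with 7 of 9 pairs lower. WDR12, of the PeBoW complex, had 1050.9, 720.1 and 968.1 in depleted cells against 1214.7, 1084.7 and 1051.3 in control cells at 48 h. The groups were separated by a narrow margin, at -0.30 (SE 0.22, adjusted p = 0.850). NOP2, a methyltransferase of the 28S RNA, had 511.8, 476.2 and 626.5 in depleted cells against 305.6, 377.2 and 412 in control cells at 72 h, without overlap (log2 0.54, SE 0.29, adjusted p = 0.380). PES1, the PeBoW partner of WDR12, and RRS1, a factor for the 5S particle, lay at -0.14 and -0.55 at 24 h and at 0.06 and 0.20 at 72 h.

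Across all roles, groups that did not overlap numbered 8 lower members at 24 h (5.29% of probe sets), 4 lower at 48 h (3.77%), and 8 higher (11.5%) and 1 lower (11.6%) at 72 h. None were higher at 24 h (7.5%) or 48 h (8.08%). The early ones were MRTO4, NIP7, DDX10, PNO1, NCL, GAR1, NHP2 and RRP1. The late higher ones were NOP58, NOP14, UTP15, WDR43, PNO1, NOP2, NOB1 and LTV1.

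The change in the depletion difference between 24 and 72 h was then tested directly. Its median over members was 0.56 on the log2 scale, against -0.04 over all genes tested, and 33 of 35 members lay above 0, with NHP2 (-0.21) and GRWD1 (-0.07) below. Without the block limma called 0 members (0.352% of probe sets higher), with 7 higher at an unadjusted p under 0.05 (4.42%). At that unadjusted p the fit with the block gave 19 higher (8.61%) and 0 lower (11%). With the block 6 of 35 were called higher, where 1.88% of probe sets were. These were TSR1 (1.05, adjusted p = 0.0407 with the block), MRTO4 (0.96, 0.0340), NOP16 (0.93, 0.0492), PNO1 (0.90, 0.0247), NOP58 (0.78, 0.0402) and DDX21 (0.73, 0.0211). They belong to the 40S, 60S, box C/D and nucleolar groups. In the probe set used, each was lower in depleted cells at 24 h and higher at 72 h in its mean. Not every further probe set changed sign. A dimmer MRTO4 probe set lay at -0.43 and -0.23 at these times. A TSR1 probe set with a mean signal of 73.3 lay at -0.08 and -0.20, and a NOP16 probe set of 30.6 at 0.55 and 0.76. The other further probe sets of these genes above the filter went from below 0 to above 0.

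**Figure D4:**
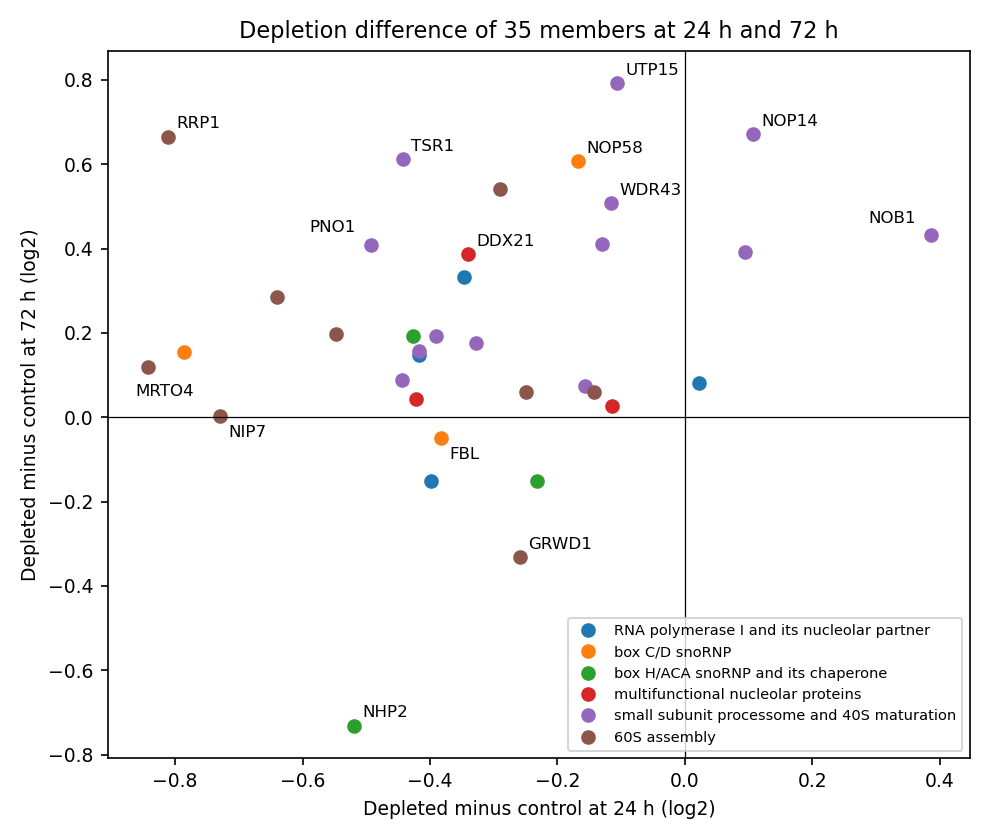
Depleted minus control log2 difference of the 35 members at 24 h (horizontal axis) and at 72 h (vertical axis), coloured by role, 1 point a member. Most points lie left of 0 and above 0, with NHP2 low on both axes and NOB1 high on both.

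Between 24 and 48 h the difference changed less. limma called 0 members with or without the block and 0 probe sets overall (0%), and at an unadjusted p under 0.05 it gave MRTO4 alone (0.71, SE 0.30, adjusted p = 1.00) without the block, where 2.27% of probe sets were higher and 0.857% lower. Next by p were NIP7 at 0.66, GAR1 at 0.49, NOB1 at -0.53 and POLR1C at 0.49, none past the test. From 48 to 72 h the median member changed by 0.36 and 0 were called (0.0549% of probe sets lower, 0.114% higher), with 4 higher at an unadjusted p under 0.05 (3.16%). Those were PNO1 at 0.81, NOP58 at 0.72, LTV1 at 0.82 and WDR43 at 0.68, and UTP15 followed at 1.02. With the block 0 were called (1.23% lower, 1.03% higher), and the smallest adjusted p was 0.0580, for PNO1. At an unadjusted p under 0.05 that fit gave 13 higher (6.93%) and 0 lower (10.3%).

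The time course differed within each medium. At 72 h against 24 h, the median member changed by 0.23 in depleted cells and by -0.36 in control cells, against -0.02 and 0.01 over all genes tested. In depleted cells limma called 0 members (0.941% of probe sets higher), 0 had an unadjusted p under 0.05, and with the block TSR1 was called higher (log2 0.82, adjusted p = 0.0154), where 4.37% of probe sets were called higher and 5.93% lower. NOB1 (0.51), MRTO4 (0.43), NOP58 (0.36), UTP15 (0.57) and RRP9 (0.67) had the smallest p there without the block. In control cells 0 were called without the block (0.0659% lower, 0.0513% higher) or with it (0.487% lower, 0.729% higher), and 5 were lower at an unadjusted p under 0.05 (3.12%). Those were PNO1 (-0.61, SE 0.20, adjusted p = 0.454), MRTO4 (-0.54), GAR1 (-0.48), POLR1C (-0.57) and DDX10 (-0.36). With the block, at the same unadjusted p, 15 were lower (6.84%) and 1 higher (7.62%) in control cells. In depleted cells 8 were higher (11.6%) and 0 lower (13.7%) by that count. These 2 time comparisons share their arrays with the depletion comparisons at 24 and 72 h.

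Other genes of the pathway had medians of the same sign. Over 122 further ribosome biogenesis and polymerase I genes the median was -0.16 at 24 h, -0.10 at 48 h and 0.18 at 72 h, with 91, 87 and 34 of 122 below 0. Without the block 0 were called at 24 and 48 h, and at 72 h 2 were called higher and 0 lower (2.23% and 1.93% of probe sets). With the block 2 were called higher at 24 h and 0 lower (1.55% and 0.813% of probe sets), 0 either way at 48 h, and 13 higher and 2 lower at 72 h (6.4% and 6.9%). The early ones went against the median: POLR1D, a subunit shared by polymerases I and III (log2 0.72, adjusted p = 0.216, and 0.0119 with the block), and RSL24D1, a 60S assembly factor (0.68, 0.324, and 0.0194 with the block). RIOK1, an atypical kinase of 40S maturation, had 374, 386.2 and 328.1 in depleted cells against 220.5, 205.1 and 201.7 in control cells at 72 h. The groups were far apart (log2 0.75, SE 0.20, adjusted p = 0.0492). TAF1A, a subunit of the polymerase I selectivity factor SL1, had 436.8, 234.1 and 307.4 in depleted cells against 149.8, 86.1 and 144.8 in control cells at 72 h. All depleted arrays lay above all control arrays (log2 1.25, SE 0.34, adjusted p = 0.0490). UBTF, the upstream binding factor of polymerase I, went the other way at 72 h (log2 -0.72, adjusted p = 0.175) and was called lower with the block (adjusted p = 0.0108).

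By role, the other 40S factors (45 genes) had medians of -0.20, -0.09 and 0.18 at the 3 times and the other 60S factors (49) -0.13, -0.10 and 0.21. With the block 8 of these 49 60S genes were called higher at 72 h, where 6.4% of probe sets were. GTPBP4, a nucleolar GTPase of 60S assembly, was among them (log2 0.62, adjusted p = 0.0108 with the block). The other polymerase I genes (13) had 0.01, -0.05 and 0.20 and the nuclear exosome (15) -0.14, -0.20 and 0.11. Subunits of RNA polymerases II and III (22) lay at -0.13, -0.08 and -0.01. POLR3K among them had 303.2, 186.1 and 277.5 in depleted cells against 595.5, 382.4 and 483.5 in control cells at 24 h, and its average over the times was called lower (log2 -0.56, SE 0.15, adjusted p = 0.0469).

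The proteins of the ribosome itself are listed beside the factors that build it. Cytosolic ribosomal proteins (54 genes) had medians of -0.03, -0.06 and 0.10, with 37, 36 and 4 of 54 below 0, and after quantile normalization 0.04, 0.04 and 0.01, so their direction at 24 and 48 h turned with the scaling. RPS27L, a paralogue of RPS27 known as a p53 target, was called lower at 72 h (log2 -0.92, SE 0.23, adjusted p = 0.0320). Mitochondrial ribosomal proteins (72 genes) lay lower at all 3 times, at -0.34, -0.27 and -0.26, with 64, 61 and 57 of 72 below 0. At 72 h 1 of them, MRPL35, was called lower (log2 -0.68, SE 0.18, adjusted p = 0.0450), where 1.93% of probe sets were. With the block 15 were called lower at 72 h (6.9% of probe sets) and 3 at 24 h (0.813%). The change of the depletion difference from 24 to 72 h had a median of 0.56 over the members and of 0.07 over mitochondrial ribosomal proteins, and this gap was not tested.

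**Figure D5:**
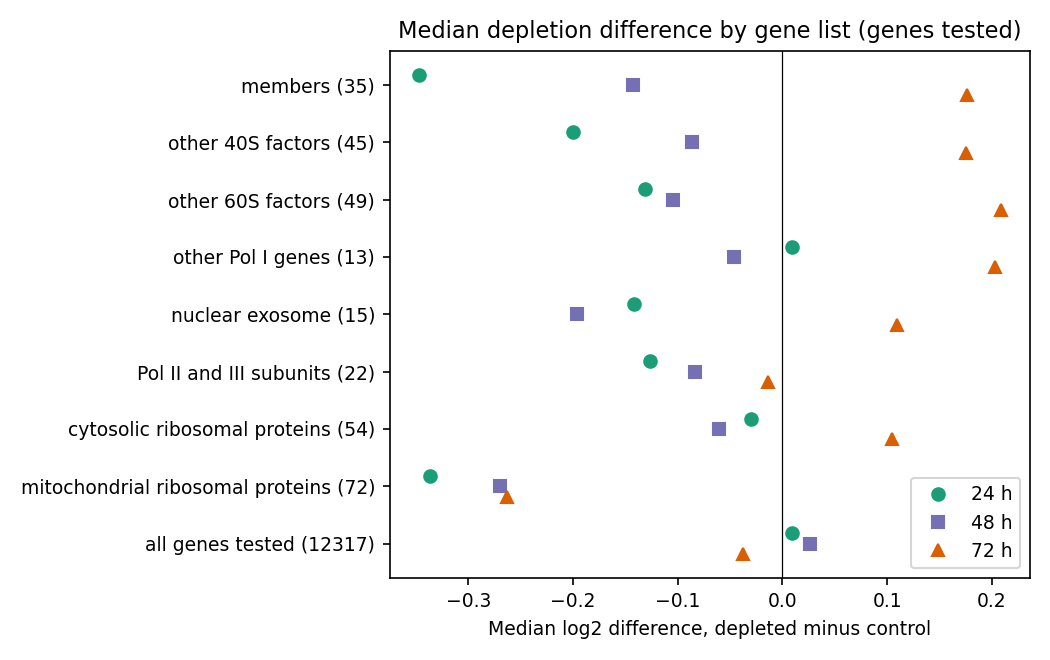
Median depleted minus control log2 difference at 24, 48 and 72 h for the members and for other gene lists, with the number of genes tested in brackets. The members, the other 40S and 60S factors and the exosome genes lie below 0 at 24 and 48 h and above 0 at 72 h, while mitochondrial ribosomal proteins lie near -0.3 at all times.

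Genes of the MYC network also differed between media. MYC, which activates through the E-box, had 2160.9, 968.7 and 3009.9 in depleted cells against 632.1, 333.5 and 685.4 in control cells at 72 h (log2 1.78, SE 0.43, adjusted p = 0.0251). No depleted array overlapped the control arrays. At 24 h MYC lay at 0.24 (adjusted p = 0.953). MXD1 and MXI1, repressors that compete for the same partner MAX, were also higher at 72 h, by 1.40 (adjusted p = 0.00129) and 1.13 (adjusted p = 0.00288). MYCN, a MYC paralogue, was lower at 72 h (-1.32, adjusted p = 0.00269). At 24 h MXI1 was at 0.77 (adjusted p = 0.146) and MAX at 0.73 (adjusted p = 0.481), and both were called higher with the block (0.0179 and 0.0191). Averaged over the times MXI1 was higher by 0.84 (adjusted p = 0.000454) and MXD1 by 0.69 (adjusted p = 0.00414). Whether any of these bears on the members was not tested.

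Members with and without an E-box near the start did not part clearly. The 15 measured members with CACGTG in a window had medians of -0.29 at 24 h and 0.19 at 72 h, and the 16 without had -0.42 and 0.12. Of the 9 members with a window that were lower in all 3 sets at 24 h and higher in all 3 at 72 h, 5 held the E-box, and so did 10 of the other 22. Of the sequences printed above, those of PNO1, MRTO4, WDR43 and DDX21 hold CACGTG. Their mean difference in the probe sets used changed sign between 24 and 72 h. Those of FBL and NOP14, whose mean difference did not change sign, hold it too.

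Further probe sets bore on how firm these values are. Of the members, 18 had 31 further probe sets above the filter, of which 23 had the sign of the one used at 24 h, 18 at 48 h and 17 at 72 h. The direction of the members as a group was read from the probe set with the highest mean, and its sign was the same when all probe sets were averaged. With the mean of all probe sets of a gene, the median member lay at -0.29, -0.14 and 0.19 at 24, 48 and 72 h.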

How the data were processed

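RNA of 18 Caco-2 samples, 3 in each of 6 groups, was measured on Affymetrix arrays. The deposited values are MAS5 signal intensities on a linear scale, already scaled by the authors. MAS5 is named per the submitters' processing notes, with no version. Detection calls were not used here. The number of arrays limits the precision.

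Signals were analysed as log2(signal + 16) with that scaling kept. Of 54675 probe sets, 62 controls were dropped, and the rest had to reach a mean log2 of 5.15, the median (signal 19.6). Gene symbols came from the platform annotation, in which all 35 members carry current symbols. limma 3.58.1 under R 4.3.3 was fitted to all arrays with 1 mean for each group and no block, with Benjamini-Hochberg adjustment over 27303 probe sets and a threshold of 0.05. Scripts were tested on simulated data. Arrays with the same set number correlated best with their own set in 18 of 18 cases, and a second fit of each comparison took the set as replicate block. The numbering of the samples in their titles gave the sets.

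The alternatives were a pseudocount of 1, no filter, centring on the 75th percentile, quantile normalization, the mean of all probe sets of a gene, the block, and leaving out each array. Named were members past the test or with the smallest p in each comparison, the one with the smallest p at 24 h in each role, the most opposite ones and, of other lists, up to 6 genes past the test. The members and all lists were chosen with earlier results of these data known. The MYC genes at 24 h and the further probe sets of LTV1, MRTO4, NOLC1, NOP16, PNO1, POLR1A and TSR1 were named after their values were seen. Motifs were counted in RefSeq start windows, and protein sequences were not used here. Figures were drawn with matplotlib 3.10.9.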

Additional observations from a re-analysis of the deposited data

Results flagged for a closer look

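For 11 members the estimated depletion difference was flagged as unlike at 24 and 72 h, given here as log2 changes of that difference. In 6 of them the change passed limma's test with the set as block: TSR1 (1.05), MRTO4 (0.96), NOP16 (0.93), PNO1 (0.90), NOP58 (0.78) and DDX21 (0.73), with adjusted p between 0.0211 and 0.0492. Of these, MRTO4 had no uniform sign over the sets at 72 h. Further probe sets of MRTO4, TSR1 and NOP16 that did not change sign are given above. The other 5 were flagged because they were lower in depleted cells in all 3 sets at 24 h and higher in all 3 at 72 h. Of all probe sets tested, 3.93% had that pattern, and the change of these 5 members did not pass the test. These were POLR1B (0.68, adjusted p = 0.0527 with the block), WDR43 (0.62, 0.108), GAR1 (0.62, 0.158), LTV1 (0.58, 0.177) and DDX10 (0.57, 0.0967). Without the block none of the 11 passed, with adjusted p between 0.189 and 0.723.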

How the results depend on the processing

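No median over the members changed sign under any alternative run, and neither did a member value called with the block. Values of single members that passed no test did in places, such as RRP1 at 72 h (log2 0.67, and -0.06 without the set 1 control array). With the replicate block, members called lower numbered 1 at 24 h, 1 at 72 h and 4 in the average of the 3 times, and members called higher numbered 5 at 72 h, 6 in the change from 24 to 72 h and 1 in depleted cells over time, each against 0 without it. The block changed no other count. Centring on the 75th percentile gave medians of -0.27 at 48 h, -0.15 in the average and 0.50 in the change from 48 to 72 h. The mean of all probe sets of a gene gave 0.30 for that last median and 1 member higher in depleted cells over time, LTV1 (log2 0.75, adjusted p = 0.0309). Without set 2, an alternative chosen after seeing the data, the 72 h median was 0.26. Leaving out 1 array at a time gave medians of -0.41 to -0.26 at 24 h, -0.24 to -0.054 at 48 h, 0.13 to 0.24 at 72 h, -0.14 to -0.080 in the average, 0.28 to 0.47 from 48 to 72 h and 0.19 to 0.32 in depleted cells over time. The 48 h median was moved most by arrays of set 2 in either medium and by the depleted array of set 3. These fits called 0 members except in the average, at 0 to 1, where NHP2 was called without the control 48 h array of set 2. Of single members, 19 values passed the test that did not before and 2186 kept their call under the settings other than leaving out 1 array. The fit without set 2 is among those settings. The cause was not tested for any of these. How far each probe lay above background was not measured here. RRP1 fell to a signal of 7.3, below the filter limit, and its differences carry a wide error, as do those of the brighter TSR1.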
